A study of Mus musculus with 18 samples.

Results

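The genes of the mitochondrial respiratory chain were followed in livers of aged mice that lacked the histone chaperone HIRA in hepatocytes. Members were chosen by name: gene symbols that begin with Ndufa, Ndufb, Ndufc, Ndufs, Ndufv, Uqcr, Cox4i, Cox5, Cox6, Cox7 or Cox8, the succinate dehydrogenase genes Sdha to Sdhd, Cyc1, and mitochondrial genes whose names begin with mt-Nd, mt-Co, mt-Cyt or mt-Atp, with at least 10 counts in all libraries together and no -ps in the name. The rule found 98 rows and kept 89 of the 23512 genes that reached 10 counts. It left out 4 names with -ps and 5 genes under 10 counts. The 89 members were 70 nuclear genes that are named for subunits (3 of them, Ndufs6b, Ndufa11b and Cox6c2, are processed pseudogenes in GENCODE M21 and stay in the counts because the rule goes by name; none was called), 11 genes of mitochondrial DNA, and 8 assembly factors of complex I (Ndufaf genes) that share the prefix but are not part of the finished chain. From the counts 85 members could be compared, because 4 of the mitochondrial genes were almost empty in the count table.

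C57BL/6 mice of both sexes were used. HIRA KO mice carried HIRA fl/fl alleles and received an AAV8 virus with Cre under the hepatocyte promoter Tbg. HIRA fl/fl AAV ctl mice carried the same floxed alleles and received the AAV8 Tbg virus without Cre, and WT AAV Tbg-Cre mice were wildtype and received the Cre virus. Injection took place at 6 months of age and livers were taken 12 months later, with 3 mice per group and sex and 18 libraries in all. All mice therefore carried an AAV8 virus, and Cre acted in hepatocytes while poly(A)-selected RNA was read from whole liver, so that fewer cells of a type and less RNA per cell cannot be told apart. The hepatocyte markers made up 117594 to 201792 counts per 1000000 normalised counts (CPM) per library, which fitted the labelled tissue.

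The respiratory chain moves electrons from NADH and succinate to oxygen. Complex I (NADH dehydrogenase) and complex II (succinate dehydrogenase) pass electrons to coenzyme Q, complex III passes them to cytochrome c and complex IV (cytochrome c oxidase) passes them to oxygen, while complexes I, III and IV pump protons for ATP synthase. Mitochondrial DNA encodes the central membrane subunits of complexes I, III and IV and a few of ATP synthase, and the nucleus encodes all other subunits, including the whole of complex II. Some complex IV subunits exist in pairs, a form used in most tissues, including liver, and a form typical of heart, skeletal muscle and brown fat.

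Library totals ranged from 15210023 to 24389407 counts. Hira itself was a weak check of the labels, since its counts cover the whole gene: in HIRA KO females it lay at 3.71, 3.02 and 4.28 CPM, below all 6 female controls (4.43 to 7.62), whereas in HIRA KO males it lay at 3.71, 3.00 and 9.42 CPM against 3.59 to 7.96 in the male controls. The library labelled HIRA KO male replicate 3 thus had more Hira reads than any control. The gene sets and some single genes are therefore also given without it. By edgeR's quasi-likelihood test over both sexes Hira was not called (log2 fold change -0.47, adjusted p = 0.141). Without this library it was called lower (-0.81, adjusted p = 0.00528). The 3 HIRA KO male libraries had few genes at the lowest counts, with 1937 to 2172 genes at 1 to 5 counts against 3046 to 5856 genes in the other 15 libraries. The WT AAV Tbg-Cre male replicate 1 library stood apart from the other male controls in the level of short transcripts, as described with the transcript lengths. Several other cell types differed as well: 4 of 7 cholangiocyte markers rose (Krt19, Epcam, Sox9 and Spp1), and their list summed to 174.7 to 282.5 CPM in HIRA KO against 45.5 to 185.6 CPM in controls. Among erythroid markers 4 of 5 rose, summing to 76.9 to 333.0 CPM in HIRA KO and 37.0 to 192.2 CPM in controls. Stellate cell and fibroblast markers rose in 4 of 7 genes, endothelial markers fell in 2 of 5, the neutrophil marker S100a9 rose, hepatocyte markers rose in 3 of 8 and fell in 2, and no macrophage, lymphocyte or adipocyte marker was called. The part of these cells in the results was not tested.

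Promoter windows are shown for 5 members that the results turn on: the pair Cox8b and Cox8a, the muscle-type and general forms of complex IV subunit 8; Cox7a1, another muscle-type form; Ndufc1, the complex I gene with the largest rise; and Sdhb, a complex II gene that fell. Each runs from 250 bases before to 50 bases after the RefSeq start of the gene in build GRCm38.p6, 5′ to 3′ on the gene's strand, and capitals mark matches on either strand. The TATA box was searched as TATAAA. For the E-box the letters were CAGCTG. The CCAAT box was searched by the letters of its name. For the ETS family, the class of GABPA, they were CCGGAAG. The YY1 motif was searched as AAGATGGCG.
Cox8b, chr7:140900397-140900696, minus strand: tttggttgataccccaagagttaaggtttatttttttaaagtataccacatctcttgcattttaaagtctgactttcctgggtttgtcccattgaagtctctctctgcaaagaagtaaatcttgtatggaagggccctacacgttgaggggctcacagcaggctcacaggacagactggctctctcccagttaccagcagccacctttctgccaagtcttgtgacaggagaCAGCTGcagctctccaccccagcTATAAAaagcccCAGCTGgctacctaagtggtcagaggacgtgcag
Cox8a, chr19:7217567-7217866, minus strand: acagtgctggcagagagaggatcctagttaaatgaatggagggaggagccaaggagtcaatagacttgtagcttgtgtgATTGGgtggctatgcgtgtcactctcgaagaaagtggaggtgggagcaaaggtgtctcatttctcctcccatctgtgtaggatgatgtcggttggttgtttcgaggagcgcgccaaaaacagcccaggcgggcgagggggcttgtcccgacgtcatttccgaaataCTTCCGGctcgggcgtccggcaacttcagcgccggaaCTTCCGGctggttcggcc
Cox7a1, chr7:30183921-30184220, plus strand: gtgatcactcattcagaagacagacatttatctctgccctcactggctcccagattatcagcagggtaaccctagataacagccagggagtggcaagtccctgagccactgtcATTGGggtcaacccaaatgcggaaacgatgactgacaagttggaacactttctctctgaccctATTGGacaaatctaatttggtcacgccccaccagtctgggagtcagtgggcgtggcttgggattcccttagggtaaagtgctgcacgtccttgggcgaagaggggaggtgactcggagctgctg
Ndufc1, chr3:51408906-51409205, minus strand: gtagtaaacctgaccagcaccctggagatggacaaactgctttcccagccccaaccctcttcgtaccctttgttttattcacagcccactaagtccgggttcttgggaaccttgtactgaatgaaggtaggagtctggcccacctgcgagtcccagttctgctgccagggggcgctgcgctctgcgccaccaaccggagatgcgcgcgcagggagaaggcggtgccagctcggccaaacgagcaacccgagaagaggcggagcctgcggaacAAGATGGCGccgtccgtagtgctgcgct
Sdhb, chr4:140961021-140961320, plus strand: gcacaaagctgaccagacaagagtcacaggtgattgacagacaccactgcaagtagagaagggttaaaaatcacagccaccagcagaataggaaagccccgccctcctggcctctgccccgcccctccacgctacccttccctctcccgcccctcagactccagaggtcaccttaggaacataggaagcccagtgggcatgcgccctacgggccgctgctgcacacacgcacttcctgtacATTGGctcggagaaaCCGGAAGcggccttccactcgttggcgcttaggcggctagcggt

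The Cox8b window held 2 CpG dinucleotides, and that of Cox7a1 held 7. In contrast, the Cox8a, Ndufc1 and Sdhb windows held 19, 20 and 15 CpG. Among the 53 nuclear subunit genes with a RefSeq window the median was 19 CpG, compared with 7 CpG over all 27025 windows. The ETS motif was found in 11 of these 53 windows (20.8%, against 9.12% of all windows), the YY1 motif in 5 (9.43% against 1.49%) and the NRF1 motif GCGCATGCG in 5 (9.43% against 1.81%). Of the 22 genes with a window that rose in HIRA KO, 5 held the ETS motif, 3 the YY1 motif and 1 the NRF1 motif, while of the other 31 the counts were 6, 2 and 4. Matches to different motifs may overlap. A CCAAT box was as frequent in subunit windows (37.7%) as in all windows (37.9%). These are matches of letters only.

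The first question was whether loss of HIRA changed the nuclear and the mitochondrial genes of the chain alike. The counts of the 70 nuclear subunit genes together made up 0.923%, 0.748% and 1.02% of all counts in the HIRA KO males and 0.810%, 0.800% and 0.724% in the HIRA KO females. Male controls ranged from 0.618% to 0.837% (median 0.668%), and female controls from 0.600% to 0.721% (median 0.696%). HIRA KO females lay above all female controls, replicate 3 only narrowly, and among the HIRA KO males replicate 2 lay within the male control range. These shares use library totals without normalization. On normalised counts the median log2 level of the 70 genes in HIRA KO female replicate 3, relative to the female control mean, was 0.01. That lay within the female controls (-0.13 to 0.14).

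Genes of mitochondrial DNA took a larger part of each library. The 7 countable genes made up 4.90%, 6.22% and 5.35% of counts in HIRA KO males, with male controls from 5.14% to 6.50%, and 5.17%, 3.44% and 4.10% in HIRA KO females, with female controls from 3.96% to 5.63%. Both ranges overlapped. The number of mitochondrial counts per nuclear subunit count was 5.88 ± 1.37 (SD, n = 6) in HIRA KO and 7.85 ± 1.33 (n = 12) in controls. It lay at 5.31, 8.32 and 5.27 in HIRA KO males against 6.15 to 10.5 in male controls, and at 6.38, 4.30 and 5.67 in HIRA KO females against 6.14 to 8.01 in female controls, so that 4 of the 6 HIRA KO livers fell below every control of their sex. Because the members were chosen as a set, no test was applied to these sums.

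**Figure D1:**
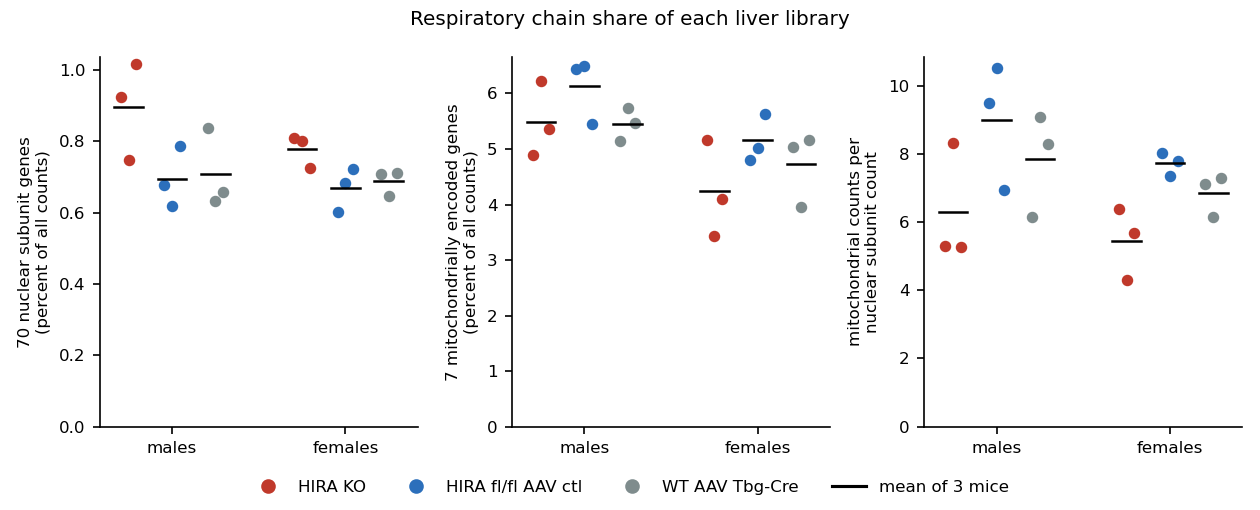
Share of all counts held by the 70 nuclear subunit genes (left, percent), by the 7 countable mitochondrially encoded genes (middle, percent), and the ratio of mitochondrial to nuclear subunit counts (right), with 1 point per mouse and a line at the mean of 3 mice. The ratio averaged 5.88 in the 6 HIRA KO livers and 7.85 in the 12 controls, and the groups overlap.

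Gene by gene, the nuclear and the mitochondrial genes moved in opposite directions on balance. With edgeR's quasi-likelihood test over both sexes, 24 of 70 nuclear subunit genes rose and 3 fell at an adjusted p below 0.05 (background: 8.92% of all genes tested rose and 11.6% fell), and 43 were not called. The median log2 fold change was 0.27 for the nuclear subunit genes, -0.23 for the 7 countable mitochondrial genes and -0.03 for all genes tested. No mitochondrial gene rose and 3 of 7 fell by edgeR, 4 had an unadjusted p below 0.05, and DESeq2 called 1 higher and 3 lower. With an absolute log2 fold change above 1 as a further condition, 2 nuclear subunit genes (Cox8b and Cox7a1) and no other member were called (background 8.5%), and the changes of the common subunits were therefore modest.

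The call of the nuclear genes depended on the libraries used. Without the library labelled HIRA KO male replicate 3, 17 nuclear subunit genes rose and 4 fell, and the median was 0.20 (background 9.91% higher and 12.1% lower). Of the 27 genes called with all libraries 19 were called again in the same direction. Cox5a, Cox6b1, Cox7c, Ndufa3, Ndufa5, Ndufb8, Ndufs6 and Uqcrq were not. Against WT AAV Tbg-Cre mice alone 3 rose, Cox8b, Ndufc1 and Ndufb3, and none fell (median 0.26, 6 control mice, background 4.06% higher and 5.44% lower). Against HIRA fl/fl AAV ctl mice alone 14 rose and none fell (median 0.28, background 3.83% higher and 5.47% lower). The median of the 7 mitochondrial genes was -0.07 against WT AAV Tbg-Cre mice alone and -0.35 against HIRA fl/fl AAV ctl mice alone. Of these genes mt-Cytb was called against each, and mt-Nd4 against HIRA fl/fl AAV ctl mice only.

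**Figure D2:**
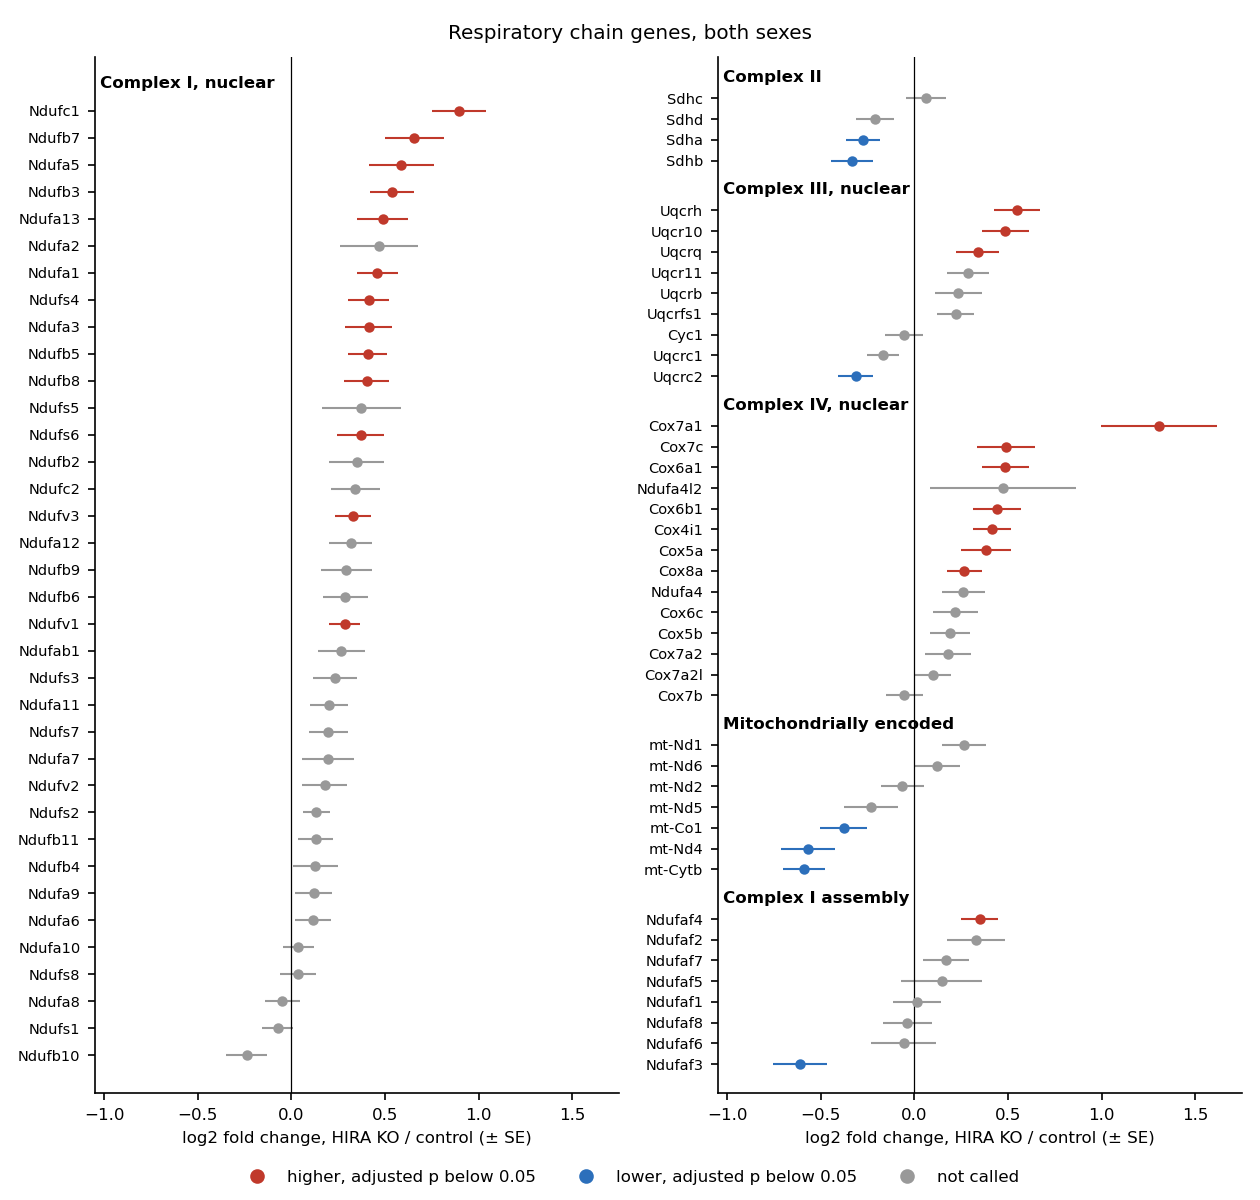
Log2 fold change of HIRA KO over control with its standard error for each member of at least 1 CPM, from edgeR over both sexes, grouped by complex, with called genes in red (higher) and blue (lower). Complex I, III and IV genes lie mostly to the right of 0, Sdha, Sdhb, Uqcrc2, mt-Co1, mt-Nd4, mt-Cytb and Ndufaf3 were called to the left, and Cox8b at 7.29 is off the scale.

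Complex I feeds electrons from NADH into the chain. Of its 38 nuclear genes, the pseudogenes Ndufs6b and Ndufa11b among them, 13 rose and none fell, with a median log2 fold change of 0.29. Among the 7 core subunits, which carry the flavin and iron-sulfur centres, only Ndufv1 rose (0.29 ± 0.08 SE, adjusted p = 0.0174), and 12 of the 31 remaining genes rose (12 of 29 accessory subunits without the pseudogenes). The medians were 0.18 for core and 0.34 for accessory subunits, and their median transcript lengths were 1623 and 732 bases. After removal of the length and GC trend, described with the transcript lengths, the medians were 0.18 and 0.19, and the difference was not tested. For each complex the background is 8.92% higher and 11.6% lower over all genes tested.

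Ndufc1, a small membrane accessory subunit, rose most in this complex. It lay at 66.2, 42.1 and 60.6 CPM in HIRA KO males against 22.1 to 42.8 CPM (median 22.9) in male controls, and at 47.8, 48.9 and 28.7 CPM in HIRA KO females against 21.1 to 26.6 CPM (median 24.8) in female controls. Only replicate 2 of the HIRA KO males fell inside the control range, below WT AAV Tbg-Cre male replicate 1, and the log2 fold change was 0.90 ± 0.14 (adjusted p = 1.39e-04).

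Ndufb3, also an accessory subunit of the membrane arm, reached 63.0, 59.1 and 70.2 CPM in HIRA KO males and 30.8 to 56.5 CPM (median 40.7) in male controls. HIRA KO females had 69.3, 50.2 and 40.5 CPM and female controls 32.7 to 45.8 CPM (median 37.9). Males did not overlap, females did through replicate 3, and the log2 fold change was 0.54 ± 0.12 (adjusted p = 0.00235).

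For Ndufb7, a subunit on the intermembrane side, the HIRA KO males spread widely, with 125.1, 46.3 and 100.2 CPM against 39.6 to 75.9 CPM (median 48.6) in male controls. The HIRA KO females, with 82.6, 82.5 and 56.5 CPM, lay above the female controls at 47.4 to 54.2 CPM (median 52.2). The log2 fold change was 0.66 ± 0.16 (adjusted p = 0.00451). Ndufa1, which is needed for assembly of the membrane arm, rose by less (0.46 ± 0.11, adjusted p = 0.00467), with 49.0, 41.9 and 58.8 CPM in HIRA KO males, 51.1, 45.1 and 34.8 CPM in HIRA KO females, and 31.9 to 49.5 and 26.0 to 34.9 CPM in male and female controls. Both sexes overlapped for Ndufa1, and after removal of the length and GC trend its change was 0.19 and not called (adjusted p = 0.0939).

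Of the 8 assembly factors of complex I caught by the prefix, Ndufaf3 fell and Ndufaf4 rose. That is 12.5% each way, near the 8.92% higher and 11.6% lower over all genes tested. Ndufaf3 stood at 4.35, 3.86 and 5.42 CPM in HIRA KO males, below all male controls (7.47 to 13.9 CPM, median 8.96), but at 7.69, 9.82 and 7.95 CPM in HIRA KO females, where controls ran from 8.39 to 11.1 CPM (median 9.50). Over both sexes the log2 fold change of Ndufaf3 was -0.61 ± 0.14 (adjusted p = 0.00459), made up of -1.05 in males and -0.17 in females. The difference between the sexes, -0.88, was not called (adjusted p = 0.117). Ndufaf4, its partner in assembly, rose by 0.35 ± 0.10 (adjusted p = 0.0138). In HIRA KO males its level was 43.6, 48.9 and 47.8 CPM, above the male controls at 26.8 to 42.0 CPM, and in HIRA KO females it was 35.5, 39.5 and 37.8 CPM beside controls at 26.9 to 36.9 CPM. Each call held against 1 control type only: Ndufaf3 was not called against HIRA fl/fl AAV ctl mice (-0.45, adjusted p = 0.142), nor Ndufaf4 against WT AAV Tbg-Cre mice (0.25, adjusted p = 0.143).

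Complex II is the only complex that is encoded by the nucleus throughout. Of its 4 genes none rose and 2 fell, and the median log2 fold change was -0.24. In the background 11.6% of all genes tested and 22.7% of genes over 8 CPM fell. Sdha, the flavoprotein that oxidises succinate, lay at 378.5, 542.2 and 477.0 CPM in HIRA KO males against 525.0 to 658.9 CPM (median 557.1) in male controls. In females the levels were 497.5, 390.2 and 397.3 CPM in HIRA KO and 472.8 to 552.8 CPM (median 496.2) in controls. In each sex 2 of 3 HIRA KO livers were below all controls, and the log2 fold change was -0.27 ± 0.09 (adjusted p = 0.0335).

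Sdhb, the iron-sulfur subunit, fell by 0.33 ± 0.11 on the log2 scale (adjusted p = 0.0418). HIRA KO males showed 139.8, 168.5 and 201.7 CPM against 183.7 to 290.3 CPM (median 224.4) in male controls, and HIRA KO females 202.9, 188.8 and 150.4 CPM against 172.6 to 257.4 CPM (median 211.8). The groups overlapped in each sex. The membrane anchors were not called: Sdhd had a log2 fold change of -0.21 ± 0.10 (adjusted p = 0.141) and Sdhc of 0.06 ± 0.11 (adjusted p = 0.740). Both calls were narrow: they were lost against either control type alone and without HIRA KO male replicate 1, and over the fits that leave out 1 library the adjusted p ranged from 0.0101 to 0.0956 for Sdha and from 0.0193 to 0.121 for Sdhb. After removal of the length and GC trend Sdha was not called (adjusted p = 0.171). Without the library labelled HIRA KO male replicate 3 Sdhd was called as well (adjusted p = 0.0193).

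In complex III 3 of 9 nuclear genes rose, all small subunits, and 1 fell, with a median log2 fold change of 0.23. With the length and GC trend removed 3 rose (Uqcrh, Uqcrq and Uqcrfs1), none fell and the median was 0.06. Uqcrh, the hinge protein next to cytochrome c1, lay at 210.5, 161.5 and 267.2 CPM in HIRA KO males, where controls ranged from 123.5 to 212.2 CPM (median 131.5). In HIRA KO females it lay at 214.6, 249.8 and 160.6 CPM, above all female controls (119.8 to 150.5 CPM, median 143.4). The log2 fold change was 0.55 ± 0.12 (adjusted p = 0.00312).

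Uqcr10 and Uqcrq, small subunits of the same complex, rose by 0.49 ± 0.13 (adjusted p = 0.00936) and 0.34 ± 0.11 (adjusted p = 0.0396). Uqcr10 had 132.1, 84.4 and 157.6 CPM in HIRA KO males against 69.5 to 112.3 CPM in controls, and 114.7, 98.5 and 78.5 CPM in HIRA KO females against 60.7 to 83.6 CPM. For Uqcrq the levels were 256.5, 191.8 and 313.1 CPM in HIRA KO males and 282.8, 242.5 and 187.6 CPM in HIRA KO females, beside 169.8 to 269.6 and 166.6 to 194.7 CPM in controls. Both genes overlapped the controls in each sex. Without the library labelled HIRA KO male replicate 3 Uqcr10 was still called (adjusted p = 0.0361) and Uqcrq was not (adjusted p = 0.126). Neither was called against HIRA fl/fl AAV ctl mice alone (adjusted p = 0.0534 and 0.122) or WT AAV Tbg-Cre mice alone (adjusted p = 0.0804 and 0.164). After removal of the length and GC trend Uqcr10 was not called (0.20, adjusted p = 0.0781).

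Uqcrc2, a large core subunit on the matrix side, was the gene that fell. It lay at 143.1, 206.0 and 149.9 CPM in HIRA KO males against 194.6 to 262.6 CPM (median 226.1), and at 206.8, 166.2 and 188.8 CPM in HIRA KO females against 189.7 to 233.5 CPM (median 206.5). The log2 fold change was -0.31 ± 0.09 (adjusted p = 0.0197). The call was lost against WT AAV Tbg-Cre mice alone (adjusted p = 0.168), against HIRA fl/fl AAV ctl mice alone (adjusted p = 0.0811), without HIRA KO male replicate 1 (adjusted p = 0.0534), without HIRA KO female replicate 2 (adjusted p = 0.0689) and after removal of the length and GC trend (-0.22, adjusted p = 0.120). Of the exon bases of Uqcrc2, 19.7% are shared with an antisense gene, Pdzd9, and whether the counting used strand is not given in the sources used here.

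Complex IV passes electrons to oxygen. Of its 19 nuclear genes (Ndufa4 and Ndufa4l2, which belong here despite their names, Cox7a2l, a factor that joins complexes, and the pseudogene Cox6c2 included) 8 rose and none fell, with a median log2 fold change of 0.27. Among the general forms Cox4i1 lay at 546.4, 383.5 and 536.5 CPM in HIRA KO males against 302.3 to 470.9 CPM (median 347.7) in male controls. HIRA KO females had 494.7, 421.3 and 388.2 CPM, all above female controls at 286.5 to 356.3 CPM (median 326.8). The log2 fold change of Cox4i1 was 0.41 ± 0.10 (adjusted p = 0.00606).

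Cox6a1, Cox6b1 and Cox8a, the liver forms of 3 further subunits, rose by 0.49 ± 0.13 (adjusted p = 0.00871), 0.44 ± 0.13 (adjusted p = 0.0190) and 0.27 ± 0.09 (adjusted p = 0.0485). Cox6a1 ran from 158.6 to 287.4 CPM in the 6 HIRA KO livers and from 129.5 to 231.3 CPM in the 12 controls. Cox6b1 ran from 178.6 to 321.4 CPM in HIRA KO and from 149.9 to 277.2 CPM in controls, and Cox8a from 112.3 to 164.3 CPM and from 88.6 to 139.8 CPM. Over all mice each overlapped, while in females alone the HIRA KO levels of Cox6b1 and Cox8a lay above all controls. Without the library labelled HIRA KO male replicate 3 Cox6b1 lost its call (adjusted p = 0.0646). It was also not called against HIRA fl/fl AAV ctl mice alone (adjusted p = 0.0614) or WT AAV Tbg-Cre mice alone (adjusted p = 0.121). The call of Cox8a was lost against WT AAV Tbg-Cre mice alone (adjusted p = 0.139), against HIRA fl/fl AAV ctl mice alone (adjusted p = 0.160) and in 10 of the 18 fits that leave out 1 library. The change of Cox8a was 0.05 once the length and GC trend was removed (adjusted p = 0.705). Cox6a1 and Cox6b1 were then at 0.26 each and still called (adjusted p = 0.0393 and 0.0176). Cox7a2 (0.18 ± 0.12, adjusted p = 0.310), Cox7b (-0.05 ± 0.10, adjusted p = 0.749) and Ndufa4 (0.26 ± 0.12, adjusted p = 0.114) were not called by edgeR. DESeq2 called Ndufa4 higher (0.31, adjusted p = 0.0434). Over the edgeR fits that leave out 1 library the adjusted p ranged from 0.0313 to 0.344 for Ndufa4 and from 0.0378 to 0.625 for Cox7a2.

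The changes of Cox8b and Cox7a1, both muscle-type forms, were larger than those of the general forms. Cox8b, the form of subunit 8 used in heart, skeletal muscle and brown fat, had 187, 99 and 66 counts in HIRA KO males and 30, 14 and 4 counts in HIRA KO females. The 12 control livers had 0 counts in 10 libraries and 1 count in 2. No library overlapped, and Cox8b was the only nuclear subunit gene of which the 6 HIRA KO livers lay apart from all 12 controls (background: 0.91% of all genes tested lay above and 1.85% below). With a floor of 3 counts per control library, the HIRA KO level was at least 40.4-fold higher in males (mean 6.46 CPM) and at least 5.57-fold higher in females (mean 0.786 CPM). Cox8b was called in both sexes (adjusted p = 6.95e-08 over both, with 1.64e-06 for males alone and 3.88e-04 for females alone). It passed the filter of 10 counts in total only through its HIRA KO counts, so these adjusted p-values serve as description only. At these CPM the gene was still far below Cox8a.

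Cox7a1, the muscle form of subunit 7a, lay at 4.35, 5.79 and 8.76 CPM in HIRA KO males, above all male controls (1.02 to 3.99 CPM, median 1.69). In HIRA KO females it lay at 4.35, 2.31 and 2.14 CPM, of which 2 were above every female control (0.617 to 2.31 CPM, median 1.61) or at its upper end. The log2 fold change was 1.31 ± 0.31 (adjusted p = 0.00464), with 1.70 for males alone (adjusted p = 0.00950) and 0.91 for females alone (adjusted p = 0.296). Against WT AAV Tbg-Cre mice alone Cox7a1 was not called (1.16, adjusted p = 0.0692). Without the library labelled HIRA KO male replicate 3 it was called (1.15, adjusted p = 0.0134). The other restricted forms stayed near the floor: Cox6a2, Cox4i2 and Cox6b2 had at most 4, 16 and 18 counts in any library, and all 3 were at 0 in the HIRA KO male libraries, which held few genes of low count. Cox7b2 and Cox8c had 0 counts throughout. Ndufa4l2, which is known to respond to low oxygen, ran from 0.506 to 3.65 CPM in HIRA KO and from 0.241 to 2.01 CPM in controls (0.47 ± 0.39, adjusted p = 0.411).

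Markers of the tissues that use Cox8b and Cox7a1 were measured beside them. Of the brown fat list Ucp1 was at 0 in all libraries, Elovl3 was lower in HIRA KO (log2 fold change -2.16, adjusted p = 2.02e-04), and Cidea had 1 count in the 6 HIRA KO libraries together against up to 69 counts in a control library. Dio2 had 33 and 18 counts in HIRA KO male replicates 1 and 2, 9 counts in HIRA KO female replicate 2 and 0 in all other libraries. All 3 brown fat markers tested were called over both sexes, Dio2 higher (log2 fold change 5.90) and Elovl3 and Cidea lower. The list summed to 218.0 to 566.4 CPM in male controls and 1.58 to 4.53 CPM in female controls. The skeletal muscle list summed to 3.76, 3.00 and 0.709 CPM in HIRA KO males, of which replicates 1 and 2 lay above all male controls (0.466 to 1.48 CPM), and to 0.578 to 0.689 CPM in HIRA KO females, below all female controls (1.07 to 2.15 CPM). Tnnt3 never exceeded 3 counts. The heart list summed to 8.12, 5.84 and 0.101 CPM in HIRA KO males, of which the same 2 lay above all male controls (0.133 to 0.901 CPM), and to 0.0530 to 3.23 CPM in HIRA KO females against 0.0852 to 4.31 CPM, with Myh6 and Myl2 at no more than 3 counts in any library. HIRA KO male replicate 3, in which neither list exceeded the controls, had 66 counts of Cox8b, the fewest of the HIRA KO males. It had the highest level of Cox7a1. The part of muscle RNA in any of these livers was not tested. Over both sexes none of the 6 muscle and heart markers tested was called by edgeR, and 1 had an unadjusted p below 0.05. In males alone Acta1 (4.25, adjusted p = 0.0304), Myh4 (5.10, adjusted p = 0.0461) and Tnnt2 (3.31, adjusted p = 0.0349) were called higher, and in females alone none was called or had an unadjusted p below 0.05.

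**Figure D3:**
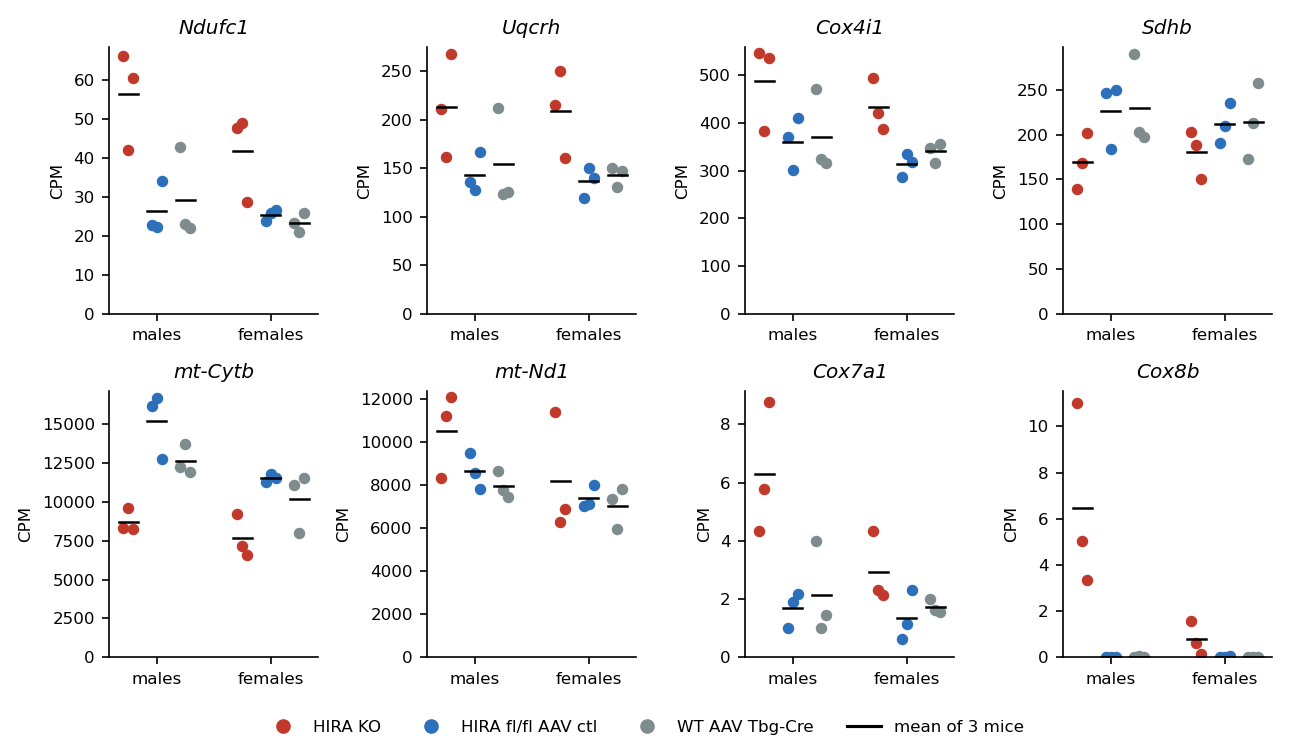
Level (CPM) of 8 members in each mouse, with a line at the mean of 3 mice in each group and sex. Cox8b is at 0 or near 0 in all 12 controls, mt-Cytb is lower in HIRA KO males than in all male controls, and for Ndufc1, Uqcrh, Cox4i1, Sdhb and Cox7a1 the highest male control is WT AAV Tbg-Cre male replicate 1.

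The nuclear genes without further mention included 7 with a near-identical copy elsewhere in the transcriptome (at least 95% identity over at least 50% of the transcript), among them Ndufs3, Uqcrb, Cox7c, Ndufs6 and Ndufb11, whose counts could be split with the copy. Ndufb1-ps, left out by the rule for its name, had 18354 counts over all mice. It lay at 81.1, 70.5 and 108.0 CPM in HIRA KO males above all male controls (at most 60.8 CPM), and its log2 fold change was 0.63 ± 0.16 (adjusted p = 0.00723).

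The mitochondrial genes could be read only in part. In the order of the mitochondrial genome, mt-Nd1, mt-Nd2 and mt-Co1 had 3017579, 2905788 and 5313435 counts over the 18 libraries, while mt-Nd4, mt-Nd5, mt-Nd6 and mt-Cytb had 1656473, 1310597, 829449 and 3995354. Between them lay a block of 6 genes with almost none: mt-Co2 had 29 counts, mt-Atp6 1296 (1295 of them in a single library), mt-Co3 547 (544 in a single library), mt-Nd3 38, and mt-Atp8 and mt-Nd4l none. In the authors' FPKM table all 13 genes were abundant, mt-Co2 with 7754 to 15278 FPKM and mt-Atp6 with 9762 to 18550 FPKM. Of these 6 genes 5 have near-identical nuclear copies on chromosome 1, and for mt-Atp8 a copy covered 21.1% of its length. The transcript of mt-Co2 matched Gm28661 over 99.6% of its length at 100% identity, that of mt-Atp6 matched Gm10925 over 99.6%, mt-Co3 matched Gm28437 over 99.9%, mt-Nd3 matched Gm28438 over 99.1% and mt-Nd4l matched Gm10222 over 99.0%. In the FPKM table Gm28661 had 0.982 to 0.993 times the value of mt-Co2 in every library, and Gm28437 1.00 times that of mt-Co3.

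To show what a read would see, 90 bases are given from mt-Co2 and from mt-Co1 beside their closest nuclear copies (GENCODE M21 transcripts, GRCm38). For each pair the stretch with the most differences was taken, and capitals mark bases that differ.
mt-Co2, chrM:7013-7102, plus strand: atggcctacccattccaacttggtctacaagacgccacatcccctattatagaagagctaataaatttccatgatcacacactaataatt
Gm28661, chr1:24615476-24615565, minus strand: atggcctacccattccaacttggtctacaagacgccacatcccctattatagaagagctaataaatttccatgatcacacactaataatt
mt-Co1, chrM:5772-5861, plus strand: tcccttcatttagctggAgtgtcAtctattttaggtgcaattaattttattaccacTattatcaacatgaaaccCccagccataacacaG
Gm13340, chr2:22589114-22589203, minus strand: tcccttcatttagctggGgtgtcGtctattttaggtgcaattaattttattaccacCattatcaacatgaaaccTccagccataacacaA

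The mt-Co2 pair had 0 differences in 90 bases and the mt-Co1 pair 5. Accordingly the counts of mt-Co2, mt-Atp6, mt-Co3 and mt-Nd3 are not used for any comparison. The copies found for mt-Nd4 covered 63.6% of its length at 100% identity. That of mt-Co1 covered its whole length at 97.6% identity, and those of mt-Nd5 and mt-Nd2 covered 52.3% at 95.2% identity and 49.1% at 96.7%. The counts of these 4 genes may be incomplete, while mt-Nd1, mt-Nd6 and mt-Cytb had no copy at 95% identity.

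**Figure D4:**
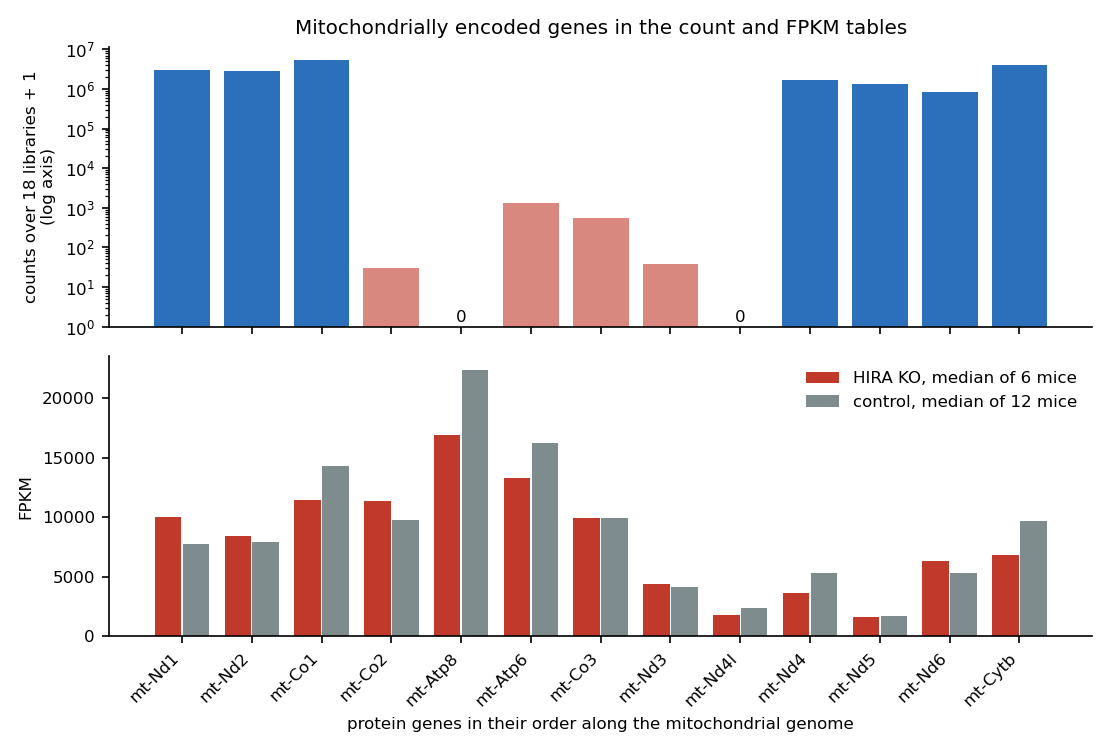
Counts summed over 18 libraries plus 1 (top, log axis) and median FPKM in 6 HIRA KO and 12 control mice (bottom) for the 13 protein genes of mitochondrial DNA in genome order. The 6 genes from mt-Co2 to mt-Nd4l, mt-Atp8 and mt-Nd4l among them with 0 counts, are almost empty in the counts and abundant in FPKM.

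Of the 7 countable genes, mt-Cytb, the haem-bearing core of complex III, fell most. It lay at 8298, 9575 and 8272 CPM in HIRA KO males, below all male controls (11932 to 16643 CPM, median 13233). In HIRA KO females it lay at 9193, 7135 and 6589 CPM against 7975 to 11780 CPM (median 11402), with WT AAV Tbg-Cre female replicate 2 as the only control that overlapped. The fitted change was -0.59 ± 0.11 on the log2 scale (adjusted p = 6.66e-04). The gene stayed called when any library was left out and against either control type.

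mt-Nd4, a proton-pumping subunit of complex I, showed 3231, 4834 and 3234 CPM in HIRA KO males against 4072 to 7107 CPM (median 5631). HIRA KO females had 4204, 2207 and 2886 CPM against 3416 to 5288 CPM (median 4461). In each sex 2 of 3 HIRA KO livers lay below all controls, and the log2 fold change was -0.57 ± 0.14 (adjusted p = 0.00750). It was not called against WT AAV Tbg-Cre mice alone (adjusted p = 0.149).

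mt-Co1, the catalytic subunit of complex IV, lay at 10456, 17006 and 12640 CPM in HIRA KO males against 15792 to 21892 CPM, and at 14680, 8578 and 9676 CPM in HIRA KO females against 12163 to 16292 CPM. Its log2 fold change of -0.38 ± 0.13 (adjusted p = 0.0382) was called only narrowly. It was not called against WT AAV Tbg-Cre mice alone (adjusted p = 0.251), against HIRA fl/fl AAV ctl mice alone (adjusted p = 0.109) or after removal of the length and GC trend. It lost the call without the library labelled HIRA KO male replicate 3 (adjusted p = 0.0722) and in 7 of the other 17 fits that leave out 1 library, in which the adjusted p ranged from 0.00506 without HIRA KO female replicate 1 to 0.118 without HIRA KO female replicate 2.

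The remaining mitochondrial genes of complex I were not called. For mt-Nd5 the log2 fold change was -0.23 ± 0.14 (adjusted p = 0.268), for mt-Nd2 -0.06 ± 0.11 (adjusted p = 0.746), for mt-Nd6 0.12 ± 0.12 (adjusted p = 0.512) and for mt-Nd1 0.26 ± 0.12 (adjusted p = 0.113). DESeq2 called mt-Nd1 higher (adjusted p = 0.0260), as did edgeR without HIRA KO male replicate 1 (0.34, adjusted p = 0.0446). The genes of this single genome thus spanned 0.86 log2 units between mt-Nd1 and mt-Cytb. mt-Nd1 lay at 8317, 11170 and 12068 CPM in HIRA KO males against 7430 to 9483 CPM in controls, and at 11364, 6286 and 6900 CPM in HIRA KO females against 5956 to 8009 CPM. mt-Nd6 is the only one of them on the opposite strand.

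In the FPKM table, which holds all 13 genes but no counts and hence no known depth, the difference of mean log2(FPKM + 1) between HIRA KO and control ran from -0.48 for mt-Cytb to 0.33 for mt-Nd1. mt-Atp6, a subunit of ATP synthase, was lower in HIRA KO males (12253 to 15370 FPKM) than in all male controls (15466 to 18550 FPKM), and overlapped in females (9762 to 14288 against 12125 to 16556 FPKM). mt-Co2 gave a difference of 0.15, mt-Co3 of -0.07 and mt-Nd3 of 0.12. These values share reads with the nuclear copies, and no test was made on them.

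Change also moved with transcript length. Among 64 nuclear subunit genes of at least 1 CPM, log2 fold change and log2 transcript length had Pearson's r = -0.33 and Spearman's rho = -0.47 across genes. Genes are not independent replicates, and all share the same 18 libraries. Of the 23 nuclear subunit genes over 8 CPM with transcripts of up to 700 bases, 12 rose and none fell, with a median of 0.37. Of 143 other genes of that length and level 54 rose (37.8%) and 13 fell, with a median of 0.34. Between 700 and 1000 bases the medians were 0.20 for 11 subunit genes and 0.14 for 324 other genes, between 1000 and 1500 bases 0.17 and 0.05, and over 1500 bases 0.13 for 15 subunit genes and -0.12 for 7112 other genes. By these medians the short subunit genes lay close to other short genes, and the long ones higher than other long genes.

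Library by library, the median of all genes over 8 CPM and of up to 1000 bases, relative to the control mean of the sex, was 0.26, -0.10 and 0.40 on the log2 scale in HIRA KO males and 0.29, 0.30 and 0.01 in HIRA KO females. The median of the 70 nuclear subunit genes was 0.33, -0.04 and 0.52, and 0.46, 0.28 and 0.01 in the same livers. WT AAV Tbg-Cre male replicate 1 stood at 0.33 for short genes and 0.37 for subunit genes, above the other 11 controls (-0.17 to 0.10 and -0.20 to 0.14). When a trend of length and GC content was removed from each library, an alternative added after the data were seen, 21 nuclear subunit genes rose and 2 fell and the median was 0.17 (background 11.4% higher and 9.31% lower). Of the 27 genes called without this step 19 were called again in the same direction. What causes the length trend was not tested.

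**Figure D5:**
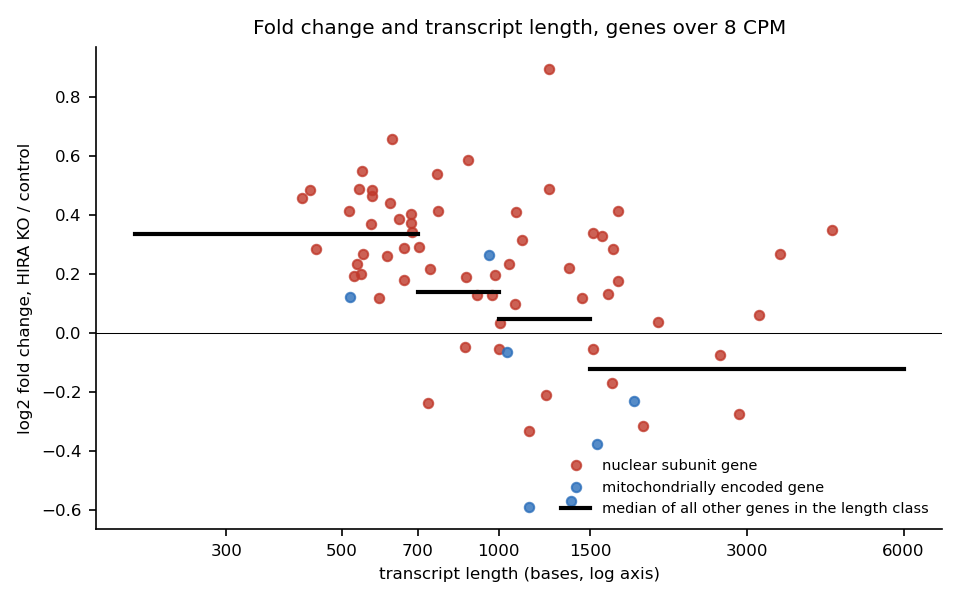
Log2 fold change over both sexes against transcript length (log axis) for nuclear subunit and countable mitochondrial genes over 8 CPM. Black lines mark the median of all other genes over 8 CPM in 4 length classes. The lines step down from 0.34 to -0.12, and nuclear subunit genes lie around them at short lengths and mostly above them at longer ones. The lowest points are mt-Cytb (-0.59) and mt-Nd4 (-0.57).

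The effect was then read in each sex. In males 18 of 85 members rose and 4 fell (background 10.9% and 11.0%), and in females 2 rose and none fell (background 2.77% and 2.94%). These counts depended on the fit. Leaving out 1 library gave 9 to 39 calls in males and 1 to 5 in females. With limma voom and with separate fits by sex more members were called in females than in males. Nuclear subunit genes had a median log2 fold change of 0.30 in males and 0.25 in females, and mitochondrial genes of -0.20 and -0.26. In females the 2 called genes were Cox8b and Ndufc1. No member differed in its effect between the sexes by edgeR (background 1.65%) or by DESeq2, and 4 members had an unadjusted p below 0.05. Those with the smallest p were Ndufaf3, Cox6b2 and Ndufs5, a complex I accessory subunit whose log2 fold change was 0.89 in males and -0.14 in females (adjusted p of the difference = 0.211).

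The 2 control types differ in genotype and in virus at once, so that neither was tested alone. Few genes of any kind were called between them (2 of 23512). No member differed between the control types by edgeR (background 0.00851%) or by DESeq2, and 1 of 85 members, Ndufaf4, had an unadjusted p below 0.05 (log2 difference 0.26). The 7 mitochondrial genes were all lower in WT AAV Tbg-Cre mice, with a median of -0.14. Between male and female controls no member was called (background: 2.02% higher and 1.71% lower in males), and 10 had an unadjusted p below 0.05. DESeq2 called 2 members. All 7 mitochondrial genes had higher values in males, with a median log2 difference of 0.34, led by mt-Cytb (0.35 ± 0.12, adjusted p = 0.144) and mt-Nd2 (0.38 ± 0.14, adjusted p = 0.173). Ndufa10, a complex I subunit, followed with 0.27 ± 0.10 (adjusted p = 0.176).

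Other genes of oxidative metabolism were read from lists by the same test. The background is 8.92% higher and 11.6% lower over all genes tested, and 10.4% higher and 22.7% lower among genes over 8 CPM. Of the 18 nuclear genes of ATP synthase and its inhibitor that were matched from a list of 37 older and current symbols, 10 rose and 1 fell, with a median log2 fold change of 0.34. With the length and GC trend removed 8 rose, 1 fell and the median was 0.31. ATP synthase uses the proton gradient. Atpif1, the inhibitor of the enzyme, lay at 25.5, 21.4 and 37.9 CPM in HIRA KO males against 7.95 to 14.0 CPM, and at 30.0, 24.3 and 24.3 CPM in HIRA KO females against 14.2 to 17.5 CPM. It did not overlap in either sex (1.11 ± 0.13, adjusted p = 3.58e-06). Atp5o, the subunit that joins the head of the enzyme to its stalk, and Atp5d rose by 0.48 and 0.39 (adjusted p = 0.00519 and 0.00467), and Atp5j, a stalk subunit, fell by 0.37 (adjusted p = 0.00255) from a male control range of 135.6 to 166.4 CPM to 102.6 to 117.6 CPM.

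Among 78 genes of the mitochondrial ribosome, which translates the mitochondrial messages, 16 rose (20.5%) and 4 fell (median 0.13). Genes over 8 CPM of 1000 to 1500 bases, a class that holds the median length of this list (1302 bases), rose in 16.9% and fell in 16.3%. Mrps12 lay at 32.8 to 40.3 CPM in HIRA KO and 17.5 to 28.2 CPM in controls (0.70 ± 0.10, adjusted p = 1.98e-05), with no overlap. Mrpl43 and Mrpl28 rose by 0.71 and 0.43, and Mrpl58 by 0.44 (adjusted p = 4.46e-04, 0.00347 and 4.39e-04). Of 33 assembly factors of complexes II, III and IV 7 rose and 1 fell, among them Cox17, the copper chaperone of complex IV (0.80, adjusted p = 0.00307), Pet100 (0.85, adjusted p = 0.00381) and Uqcc2 (0.62, adjusted p = 0.00535). Taco1, which activates translation of mt-Co1, fell by 0.65 (adjusted p = 0.00298). It lay at 5.39 to 13.3 CPM in HIRA KO males and 15.6 to 19.8 CPM in male controls, and at 8.53 to 10.1 CPM in HIRA KO females, where it overlapped controls at 9.80 to 15.6 CPM. It was called in males alone (-0.90, adjusted p = 0.00514) and not in females alone (-0.40, adjusted p = 0.319), and the difference between the sexes was not called (adjusted p = 0.376). Of 10 further assembly factors of complex I none was called by edgeR, DESeq2 called none either, 3 had an unadjusted p below 0.05, and Acad9 had the smallest p (-0.38 ± 0.14, adjusted p = 0.0547).

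Of 34 genes that copy mitochondrial DNA and handle its RNA none rose and 7 fell (20.6%), with a median log2 fold change of -0.24. Of all genes over 8 CPM and over 1500 bases 8.34% rose and 24.3% fell, a share near that of the list. Top1mt, the mitochondrial topoisomerase, lay at 5.53, 17.3 and 12.6 CPM in HIRA KO males against 19.9 to 27.2 CPM, and at 16.0, 15.9 and 14.3 CPM in HIRA KO females against 25.3 to 29.8 CPM (-0.88 ± 0.15, adjusted p = 2.80e-04). It did not overlap in either sex. Twnk, the helicase of mitochondrial DNA replication, fell by 0.60 (adjusted p = 0.00175), Elac2, which trims mitochondrial tRNAs, by 0.45 (adjusted p = 0.00326) and Lonp1, a matrix protease, by 0.41 (adjusted p = 0.00358). The list has a median transcript length of 2676 bases, against 764 bases for the nuclear subunit genes, and 1 rose and 7 fell after the length and GC trend was removed.

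Of 13 nuclear regulators of respiratory genes none rose and 3 fell (23.1%), a share near that of all genes over 8 CPM (22.7%). Esrrg, a nuclear receptor of oxidative tissues, lay at 0.0588, 0.712 and 0.101 CPM in HIRA KO males against 2.00 to 5.70 CPM, and from 0.181 to 3.39 CPM in HIRA KO females against 4.89 to 8.59 CPM. It did not overlap within either sex (-2.80 ± 0.52, adjusted p = 5.40e-04). Ppara, the receptor that drives fatty acid oxidation in liver, fell by 0.89 (adjusted p = 0.00175) and Sirt3, the mitochondrial deacetylase, by 0.65 (adjusted p = 1.34e-05). Ppargc1b, a coactivator, was not called (-0.42 ± 0.27, adjusted p = 0.287). Sirt3 lay at 29.5 to 39.6 CPM in HIRA KO and at 45.7 to 60.6 CPM in controls.

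Of 19 genes of fatty acid beta-oxidation 1 rose and 8 fell (42.1%, median -0.26), and of 16 tricarboxylic acid cycle genes 1 rose and 6 fell (37.5%, median -0.18), beside 22.7% lower among all genes over 8 CPM. Echs1, the enoyl-CoA hydratase of the pathway, lay at 208.7 to 259.0 CPM in HIRA KO and 276.7 to 398.2 CPM in controls (-0.51 ± 0.09, adjusted p = 3.95e-04). Acadvl and Etfdh fell by 0.41 and 0.40 (adjusted p = 0.00184 and 0.00408). In the cycle Idh3g fell by 0.60, from 59.4 to 69.7 CPM in controls to 30.0 to 48.8 CPM in HIRA KO (adjusted p = 5.36e-05), and Idh3b, Dlat and Suclg2 fell by 0.26, 0.47 and 0.36 (adjusted p = 0.00845, 0.0193 and 0.0224). After removal of the length and GC trend 1 cycle gene rose and 2 fell. Dlat and Suclg2 were not called then (adjusted p = 0.0768 and 0.138), without HIRA KO male replicate 1 (0.0553 and 0.0616) or without HIRA KO female replicate 2 (0.0720 and 0.0821). Against HIRA fl/fl AAV ctl mice alone Idh3b and Suclg2 were not called (adjusted p = 0.0633 and 0.0617).

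Of 18 carriers of electrons and nucleotides 4 rose and 3 fell. Slc25a4, the muscle-type adenine nucleotide carrier, lay at 30.2, 16.1 and 12.8 CPM in HIRA KO males against 2.98 to 8.37 CPM, and at 9.06, 12.1 and 13.4 CPM in HIRA KO females against 7.38 to 9.33 CPM (1.06 ± 0.18, adjusted p = 2.89e-04). Coq10b, a coenzyme Q binding protein, rose by 0.89 (adjusted p = 2.77e-04), while Coq3 and Coq9 of coenzyme Q synthesis fell by 0.58 and 0.45 (adjusted p = 5.35e-04 and 7.32e-04). Against WT AAV Tbg-Cre mice alone Atp5j, Atp5d, Atp5o, Taco1, Cox17, Uqcc2, Mrpl28, Twnk, Elac2, Lonp1, Idh3b, Dlat and Suclg2 were not called. Neither Coq gene of synthesis overlapped between HIRA KO and controls in either sex.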

How the data were processed

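Whole-liver, poly(A)-selected RNA was sequenced with a directional kit in 6 groups of 3 mice each (males and females of the WT AAV Tbg-Cre, the HIRA fl/fl AAV ctl and the HIRA KO genotype and virus), and groups were taken from the sample labels. The authors trimmed reads with Trim Galore and aligned them with STAR to mm10. The deposited table of raw counts per gene was attributed to HOMER in the study's methods and the submitters' processing notes name STAR, HTSeq and Cufflinks, so that the counter, its use of strand and its handling of reads with several matches are not settled by the sources used here. The deposited FPKM table was normalized by the authors for length and depth, and its depth is unknown. FPKM entered only the description of the mitochondrial genes and 2 alternatives, as log2(FPKM + 1) and log2(FPKM + 0.1). The fold change understates changes of low genes on that scale.

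Genes with at least 10 counts in total (23512 of 55421) were normalized by TMM and fitted with edgeR 4.0.16 (R 4.3.3, quasi-likelihood test). HIRA KO was compared with controls over both sexes and in each sex, and the difference between the sexes was taken. For these contrasts all control mice of a sex shared 1 mean, whatever their control type. The 2 control types, and male against female controls, were compared in a fit with 1 mean for each of the 6 groups. Calls were made at a Benjamini-Hochberg adjusted p below 0.05 over all genes tested, and SE is the standard error of the log2 fold change. CPM were counts per 1000000 counts of the normalized library. Contrasts shared their control mice. The p-values measure the spread between these mice. Totals of 15210023 to 24389407 counts set the precision, and the floor of 3 counts per library covers counting error only. No 2 replicates were alike within sampling noise (chi-square per gene 16.6 to 83.9).

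Alternatives were DESeq2 1.42.0, RLE normalization, TMM without the mitochondrial genes, filterByExpr, no filter, limma 3.58.1 voom with sample quality weights, no sex term, either control type alone, separate fits by sex, a replicate block, the study's fold change threshold, and leaving out each mouse. Transcript lengths, copies (BLAST 2.17.0) and exon overlaps came from GENCODE M21, in which all 89 members were found, and promoter windows from RefSeq (GRCm38.p6). Scripts were tested on simulated data with 200 changed genes. There edgeR recovered 72% of planted log2 changes of 1 and 26% of the smaller planted changes, with 4 false calls in 102. DESeq2 recovered 79% and 48%, with 32 false calls in 159. The genes named were every mitochondrial member, the 4 nuclear genes of smallest p in each complex, fixed pairs of tissue and general isoforms, the 3 of smallest p in the remaining contrasts, the 3 of largest change each way, and up to 4 of smallest p in each other list. A gene the rule names in one of those lists is not reported here. Ndufv1, Uqcrfs1 and Ndufb1-ps were named after their values were seen. The members and lists were chosen with earlier results of these data known.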

Additional observations from a re-analysis of the deposited data

Results flagged for a closer look

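A sample was singled out where its gap to the nearest mouse of its group, relative to the range of the 6 control mice of a sex, passed Dixon's critical value. There were 11 such values in 150 tests, and chance gives about 1 in 20 groups. Among members mt-Co1 was highest in HIRA fl/fl AAV ctl male replicate 1 (21892 CPM, next 17659), and mt-Cytb was lowest in WT AAV Tbg-Cre female replicate 2 (7975 CPM, next 11046). WT AAV Tbg-Cre male replicate 1 was highest in Ndufa1 (49.5 CPM, next 37.3) and in Ndufaf3 (13.9 CPM, next 9.50). The Cox8b values of 0.0487 CPM in WT AAV Tbg-Cre male replicate 2 and of 0.0427 CPM in HIRA fl/fl AAV ctl female replicate 3 were 1 count each. Cox4i2 reached 0.747 CPM in WT AAV Tbg-Cre female replicate 1, against 0.213 CPM in the next mouse.

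Among the other genes HIRA fl/fl AAV ctl male replicate 1 was highest in Elac2 (35.0 CPM, next 27.7) and Esrrg (5.70 CPM, next 3.07). WT AAV Tbg-Cre female replicate 1 was highest in Coq3 (25.6 CPM, next 19.9) and WT AAV Tbg-Cre female replicate 3 in Coq9 (97.8 CPM, next 89.0).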

How the results depend on the processing

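The median log2 fold change kept its sign under every alternative run, at 0.17 to 0.34 for nuclear subunit genes and -0.36 to -0.07 for mitochondrial genes, while the counts of calls did not. Of 27 nuclear subunit genes called, 2 were left with the study's fold change threshold, 12 with voom weights, 3 against WT AAV Tbg-Cre controls alone and 14 against HIRA fl/fl AAV ctl controls alone. Leaving out 1 library gave 17 (HIRA KO female replicate 1 or 2) to 34 (WT AAV Tbg-Cre male replicate 1). Of 3 mitochondrial genes, 0 and 1 were left with the fold change threshold and the WT AAV Tbg-Cre controls, and 2 to 3 without 1 library. The 22 calls in males became 4 with the threshold, 3 with voom, 2 and 5 with WT AAV Tbg-Cre or HIRA fl/fl AAV ctl controls alone, and 6 in a separate fit. Leaving out 1 library gave 9 to 39 there: 12, 39 and 13 without HIRA KO male replicates 1, 2 and 3, 12 and 11 without HIRA fl/fl AAV ctl male replicates 1 and 2, and 9 without WT AAV Tbg-Cre male replicate 2 or 3. The 2 calls in females became 1 with the threshold, 10 with DESeq2, 4 with filterByExpr, 11 with voom, 1 with WT AAV Tbg-Cre and 0 with HIRA fl/fl AAV ctl controls alone, 11 in a separate fit, 7 after removal of the length and GC trend, and 1 to 5 without 1 library. Between male and female controls 0 calls became 2 with DESeq2, 2 with no filter, 3 after removal of the length and GC trend, and 0 to 1 without 1 library. Fewer mice entered the fits with 1 control type, by sex and without a library; for the other changes the cause was not tested. The removal of the length and GC trend was chosen after seeing the data. Of 2112 refitted values of single genes, 1966 kept their side of the threshold, 127 were no longer called and 19 became called. Among genes not called in either fit 8 values of 6 genes changed sign, and no called value reversed.

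With the replicate block 26 nuclear subunit genes and 2 mitochondrial genes were called. The numbers did not pair the mice: correlations of deviations ran from -0.19 to 0.29 over 45 pairs, 6 exceeded 0.1, and 7 of 18 libraries correlated best with their own number.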
